A study of Homo sapiens with 6 samples.

Results

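The genes described here are 10 transcripts that the ERK pathway is known to induce: the dual-specificity phosphatases DUSP4, DUSP5 and DUSP6, the Sprouty inhibitors SPRY1, SPRY2 and SPRY4, the Sprouty-related inhibitors SPRED1 and SPRED2, and the ETS transcription factors ETV4 and ETV5. They were chosen by name, as the rows of the deposited gene table whose Ensembl identifier maps to one of these symbols, and all 10 were found, each once, among the 60960 features of the table. RNA was sequenced from NCI-H1975 cells, an established line of human non-small cell lung cancer that carries an activating EGFR mutation, in 3 libraries labelled siNC (a control small interfering RNA) and 3 labelled siGFPT2 (a small interfering RNA against GFPT2, an enzyme that feeds the hexosamine pathway). The stated purpose was to compare gene expression between these groups. All 6 libraries come from 1 cell line, and the labels leave unsaid whether replicates were grown as separate cultures. A p-value here is therefore set against the spread of these 3 samples per group, and that spread may be technical. In the main test (limma) the spread of a gene is also moderated by that of all features tested. The extraction text that all 6 samples share also names almonertinib (an EGFR inhibitor), EGF and EGFR knockdown, agents that act on the pathway upstream of these genes, but the treatment labels carry none of them. Dose, duration and time of harvest are not given in the labels.

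ERK is the last kinase of the cascade that runs from growth factor receptors such as EGFR through RAS, RAF and MEK. Active ERK induces genes that then restrain it, and this negative feedback is why the transcripts are widely read as a gauge of pathway activity. The DUSP phosphatases remove phosphate from ERK itself, DUSP6 in the cytoplasm and DUSP4 and DUSP5 in the nucleus. Sprouty proteins act between the receptor and RAF, SPRED proteins bring the RAS inhibitor neurofibromin (NF1) to the membrane, and ETV4 and ETV5 carry the signal on to transcription. The repressor CIC (capicua) holds ETV4, ETV5 and DUSP6 down until ERK signalling relieves it.

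Promoter sequence was drawn from RefSeq (build GRCh38.p14) to show where the letters of known motifs lie. Whether such sites bear on the levels in these libraries was not tested. The RefSeq windows run from 250 bases before to 50 bases after a gene start. Of the 10 genes, 6 were matched (DUSP6, SPRY1, SPRY2, SPRY4, SPRED1 and SPRED2), with 10 windows between them. DUSP4, DUSP5, ETV4 and ETV5 are named only. Each window was searched on both strands for the CIC octamer (TGAATGAA, TGAATGGA, TCAATGAA or TCAATGGA), the ETS core CCGGAA, the AP-1 site TGAGTCA and the cyclic AMP response element TGACGTCA, motifs whose letters do not contain one another. The CIC octamer lay in 1 of the 10 windows, that of DUSP6, against 3.77% of all 35116 windows. It was present there at 2 places on the opposite strand, beginning 24 bases before the start and at base 2 after it. The ETS core lay in 1 window each of SPRY1 and SPRY2, against 17.2% of all windows, beginning 67 and 142 bases before the start. The AP-1 site lay in 1 window of SPRED2, against 4.95% of all windows, and the cyclic AMP element in 0 of the 10, against 1.85%. The 3 stretches below carry the CIC octamers and ETS cores, in capitals, each read 5′ to 3′ on the strand of its gene. They lie on GRCh38.p14 at chr12:89352493-89352621 (DUSP6, minus strand), chr4:123398259-123398385 (SPRY1, plus strand) and chr13:80341127-80341328 (SPRY2, minus strand). A match describes the letters and does not show binding.
DUSP6: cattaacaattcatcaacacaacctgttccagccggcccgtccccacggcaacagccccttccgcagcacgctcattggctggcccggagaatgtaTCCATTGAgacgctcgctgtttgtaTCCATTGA
SPRY1: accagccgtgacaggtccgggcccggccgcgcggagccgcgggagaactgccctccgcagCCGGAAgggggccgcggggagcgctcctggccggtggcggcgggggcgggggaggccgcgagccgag
SPRY2: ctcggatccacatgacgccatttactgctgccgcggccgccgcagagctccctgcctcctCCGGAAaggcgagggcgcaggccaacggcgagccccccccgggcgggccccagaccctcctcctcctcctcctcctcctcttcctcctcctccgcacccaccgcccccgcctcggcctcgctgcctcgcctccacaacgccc

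The values are FPKM, fragment counts scaled by gene length and by the depth of the library. Levels can be compared between genes as far as the gene lengths used hold. All 10 genes exceeded the minimum mean of 1 FPKM over the 6 libraries that was set for testing, with 12896 features kept in all. Depth, which the smallest FPKM steps reveal, was 21899321 to 27234880 counted fragments per library. The 10 genes rested on 170 to 1493 fragments in a library, the fewest for SPRY1 and the most for SPRED2. GFPT2, the gene the small interfering RNA is directed against, had a mean of 9.24 ± 0.925 FPKM in the siNC libraries and 8.41 ± 0.734 in those labelled siGFPT2 (SD, n = 3 each). By limma its log2 fold change was -0.13, and the 95% interval covers changes from -25.9% to 12.3%. A fall of this transcript deeper than 25.9% thus lay outside the interval. Its groups overlapped, so the level of the target does not check the labels, and the name siGFPT2 stands here for the label alone. How the 10 genes respond to a loss of GFPT2 was therefore not tested. Of the 6 libraries, siNC replicate 3 and siGFPT2 replicate 2 stood apart together: they were the deepest (24493042 and 27234880 fragments) and had the fewest features at 1 FPKM or more (12539 and 12676, against 12794 to 13109 in the others). Their deviations from the mean of their own group correlated at 0.79 over the features tested, which are not independent. Whether samples or columns were exchanged cannot be told from the values, and each siGFPT2 against siNC difference given here rests on the labels as deposited. Epithelial markers summed to 1428 to 2086 FPKM in the siNC libraries and 1480 to 1881 in siGFPT2, and of 3 lung adenocarcinoma lineage markers the factor NKX2-1 was present in every library at up to 31.7 FPKM, while NAPSA (0.53 to 0.77) and SFTPB (at most 0.078) were under the minimum of 1 FPKM in each. Of the defining markers of other cells, PTPRC and CD3E (leukocytes) stayed at or under 0.017 FPKM and PECAM1, CDH5 and VWF (endothelium) at or under 0.20. The 4 leukocyte markers reported here summed to 2.16 to 3.30 FPKM in siNC and 1.94 to 2.63 in siGFPT2, mostly CD14 (up to 3.20), and the 4 fibroblast markers to 8.46 to 10.4 and 8.86 to 11.9. The fibroblast collagen COL1A1, which carcinoma lines can express themselves, reached 8.23 FPKM, and the part of such cells in the results was not tested. In bulk RNA, fewer cells with a transcript and less of it per cell cannot be told apart.

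All 10 genes were expressed, with mean levels per length that spanned 7.1-fold. DUSP5 was the most abundant at 15.6 FPKM over the 6 libraries, at the 78.5th percentile of the features tested. SPRED2 followed at 10.7, then ETV5 at 7.89, ETV4 at 7.81, SPRY2 at 6.42, SPRED1 at 4.96, DUSP6 at 3.79, DUSP4 at 3.41, SPRY4 at 2.43 and SPRY1 at 2.22 FPKM, the last at the 23.0th percentile. Most of this order held inside each library: 7 of the 9 neighbouring pairs kept their order in 6 of 6 libraries. The exceptions were ETV5 and ETV4, where ETV5 was the higher in 3 of 6, and SPRY4 and SPRY1, where SPRY4 was the higher in 4 of 6, so neither pair was separated beyond its spread.

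**Figure D1:**
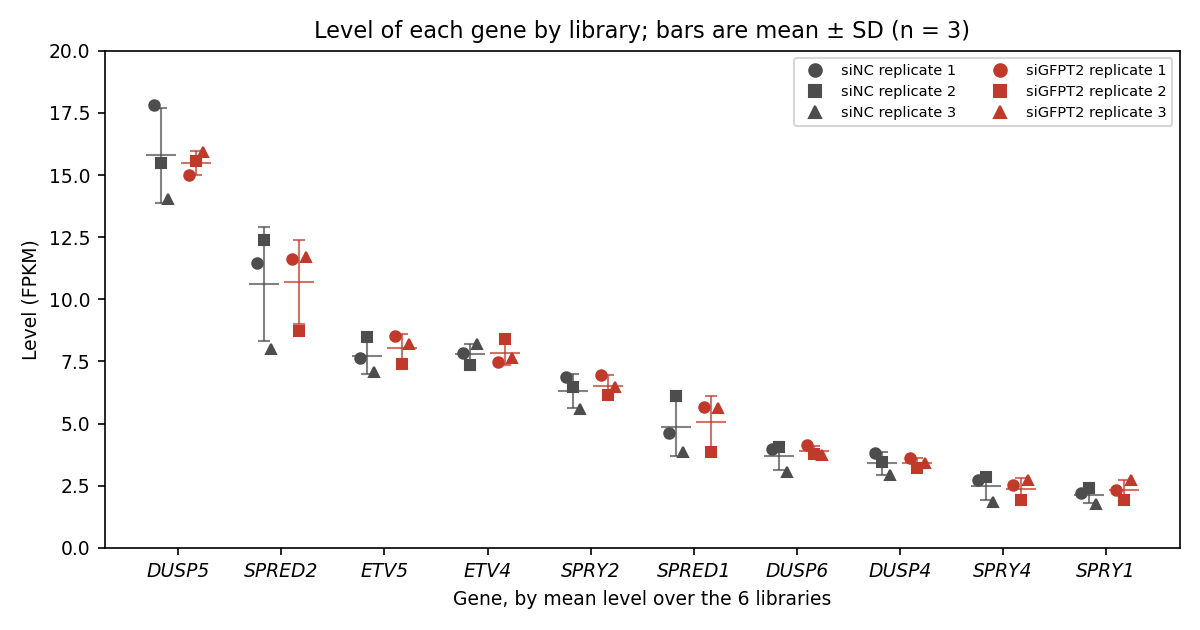
FPKM of the 10 genes in each of the 6 libraries (grey, siNC; red, siGFPT2; the symbol shape gives the replicate), ordered by mean level, with mean ± SD of each group (n = 3). The groups overlap for each of the 10 genes, from DUSP5 at 14.04 to 17.83 FPKM down to SPRY1 at 1.75 to 2.72 FPKM.

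None of the 10 genes differed between siGFPT2 and siNC by limma's test. The fold changes on the log2(FPKM + 0.1) scale ran from -0.05 for SPRY4 to 0.12 for SPRY1, with 8 above 0 and 2 below. Over all 12896 features 7922 were above 0 and 4974 below, so the whole table leaned the same way. Their median was 0.04, beside 0.03 over all features tested. The count of genes called at an adjusted p of 0.05 (Benjamini-Hochberg over all features) was 0 of 10, against a background of 0% (0 of 12896). At an unadjusted p under 0.05 it was also 0 of 10, against 0.651% of all features, and limma-voom on recovered reads called 0 as well. The groups overlapped for 10 of 10 genes, where 3.53% of all features had groups that do not. The adjusted p from limma was 0.9999 for every one of the 10, and the exact two-sided permutation p lay between 0.6 and 1, where 0.1 is the smallest that 3 against 3 samples can give. These p-values do not show that the levels are the same, so the interval of each difference is given with its values.

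Among the nuclear phosphatases, DUSP5, which anchors ERK in the nucleus as it inactivates it, was 17.83, 15.49 and 14.04 FPKM in siNC replicates 1, 2 and 3 and 14.99, 15.56 and 15.94 in siGFPT2 replicates 1, 2 and 3. The siGFPT2 values lay inside the range of siNC, whose own replicates spanned both ends. Its log2 fold change was -0.02 ± 0.12 (SE), and the 95% interval covers changes from -19.1% to 20.1%. DUSP4, which also acts on the kinases JNK and p38, was 3.81, 3.45 and 2.92 FPKM in the siNC libraries and 3.63, 3.20 and 3.41 in siGFPT2. The lowest 2 values came from siNC replicate 3 and siGFPT2 replicate 2, so both groups held a low library. The log2 fold change of DUSP4 was 0.01 ± 0.14, with an interval from -19.9% to 27.1%.

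DUSP6, the cytoplasmic phosphatase selective for ERK, was 3.99, 4.04 and 3.05 FPKM in the siNC libraries and 4.15, 3.76 and 3.72 in siGFPT2. A single library, siNC replicate 3, stood below the rest, and the other 5 lay between 3.72 and 4.15. The log2 fold change was 0.08 ± 0.15, with an interval from -17.3% to 34.8%. An antisense gene (AC024909.2 in GENCODE 29) overlaps 1875 bases of the exons of DUSP6, and whether the reads were counted by strand is not given in the sources used here, so its level is uncertain to that extent.

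Of the Sprouty genes, SPRY2 was the most abundant, at 6.89, 6.47 and 5.57 FPKM in the siNC libraries and 6.97, 6.14 and 6.48 in siGFPT2. Its range of values was narrow, with the highest library 1.25 times the lowest, and its log2 fold change was 0.05 ± 0.12 (interval -15.6% to 27.4%). SPRY4, a feedback inhibitor of receptor signalling to RAS, was 2.73, 2.86 and 1.86 FPKM in the siNC libraries and 2.52, 1.91 and 2.72 in siGFPT2. The other 4 libraries were at 2.52 or above while siNC replicate 3 and siGFPT2 replicate 2, 1 library of each group, were at 1.91 or below. This spread gave SPRY4 a wide interval, from -32.5% to 38.2% around a log2 fold change of -0.05 ± 0.22. SPRY1 was 2.21, 2.39 and 1.75 FPKM in the siNC libraries and 2.32, 1.92 and 2.72 in siGFPT2. It had the same low pair of libraries, and siGFPT2 replicate 3 was its highest. The log2 fold change of SPRY1 was 0.12 ± 0.19, with an interval from -20.0% to 48.3%.

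SPRED2 was 11.46, 12.38 and 8.01 FPKM in the siNC libraries and 11.64, 8.72 and 11.70 in siGFPT2. Here too siNC replicate 3 and siGFPT2 replicate 2 were low, and the remaining 4 libraries lay between 11.46 and 12.38. The log2 fold change was 0.02 ± 0.20, with an interval from -27.5% to 42.0%. SPRED1, whose loss-of-function mutations cause a RASopathy, was 4.63, 6.12 and 3.85 FPKM in the siNC libraries and 5.67, 3.87 and 5.63 in siGFPT2. It had the widest range of the 10 genes, with the highest library 1.59 times the lowest, and a log2 fold change of 0.06 ± 0.22 (interval -28.1% to 50.8%). NF1, the RAS inhibitor that SPRED proteins recruit, was 4.39, 5.34 and 1.86 FPKM in the siNC libraries and 4.65, 2.11 and 4.74 in siGFPT2. The log2 fold change of NF1 was 0.03 (95% interval -1.07 to 1.13). The low libraries of NF1 were those of SPRED1 and SPRED2. NF1 is long (27130 bases), and of all features longer than 7750 bases 69.0% had this lowest pair.

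The ETS factors, which read out the pathway as transcription factors, had the narrowest ranges of the 10 genes. ETV4 was 7.85, 7.34 and 8.19 FPKM in the siNC libraries and 7.46, 8.39 and 7.64 in siGFPT2. Its highest and lowest libraries differed by 1.14 times, and those of ETV5 by 1.20 times. For ETV4, siNC replicate 3 and siGFPT2 replicate 2 were its highest libraries, the reverse of the Sprouty and SPRED genes. The log2 fold change was 0.01 ± 0.11, with an interval from -15.9% to 19.9%. ETV5 was 7.63, 8.50 and 7.07 FPKM in the siNC libraries and 8.51, 7.40 and 8.22 in siGFPT2, with siNC replicate 3 and siGFPT2 replicate 2 the lowest. Its log2 fold change was 0.06 ± 0.12, with an interval from -14.6% to 26.8%. Exons of other genes overlap ETV4 by 68 bases (DHX8) and ETV5 by 164 bases (DGKG) in GENCODE 29. CIC, the repressor upstream of both, was 6.02, 5.03 and 3.18 FPKM in the siNC libraries and 4.95, 3.60 and 4.78 in siGFPT2 (log2 fold change -0.06, 95% interval -0.66 to 0.55).

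**Figure D2:**
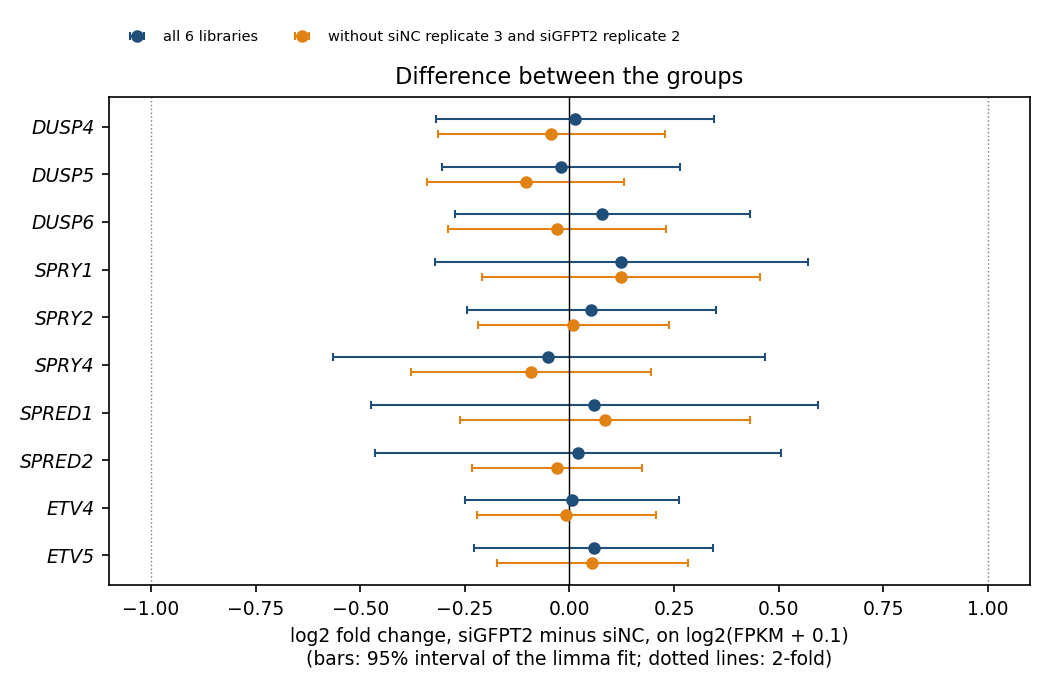
Log2 fold change of each gene, siGFPT2 minus siNC, with the 95% interval of the limma fit, for all 6 libraries (blue) and without siNC replicate 3 and siGFPT2 replicate 2 (orange). Every interval spans 0 and none reaches a 2-fold change (dotted lines); the widest for all 6 libraries is that of SPRED1, -0.48 to 0.59.

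The intervals of all 10 genes excluded a 2-fold change in either direction in these libraries. For 5 of them (DUSP4, DUSP5, SPRY2, ETV4 and ETV5) the bounds with all 6 libraries lay between -19.9% and 27.4%. Leaving out siNC replicate 3 and siGFPT2 replicate 2 narrowed the interval of each gene. These libraries hold the lowest values of most of the 10 genes and were picked because they stand apart, so narrower intervals follow from the choice and are no firmer bound. For SPRED2 it became -14.9% to 12.8% around a log2 fold change of -0.03, for SPRY4 -23.1% to 14.5% around -0.09, for DUSP6 -18.2% to 17.3% around -0.03 and for SPRY1 -13.5% to 37.2% around 0.12. Again 0 of 10 genes had an unadjusted p under 0.05 in that fit, against 5.82% of all features. The count was also 0 of 10 without siNC replicate 3 alone, against 4.03%, and without siNC replicate 2 alone, against 1.25%.

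Libraries of the same label differed from each other in a shared way. In siNC replicate 3, 9 of the 10 genes lay below their own mean over the 6 libraries, with a median deviation of -0.25 on the log2 scale, where 54.39% of all features lay below theirs and their median was -0.04. In siGFPT2 replicate 2 the count was also 9 of 10, with a median of -0.08, against 52.32% of all features and a median of -0.01, though DUSP5 and DUSP6 were there within 0.01 of their mean. In each of the other 4 libraries 2 of 10 lay below their mean, and the medians were 0.05 to 0.10, where 40.2% to 52.92% of all features lay below theirs and the medians were -0.02 to 0.05. In siGFPT2 replicate 3 the median of the 10 genes and that of all features were both 0.05. The part of depth and of the number of features detected in these departures was not tested. These libraries were the lowest pair for 7 of the 10 genes (DUSP4, SPRY1, SPRY2, SPRY4, SPRED1, SPRED2 and ETV5) and the highest pair for ETV4. Over all features tested they were the lowest pair for 35.4% and the highest for 29.8%, so a shared departure of these libraries from the rest is common in the table. The count of 7 was looked for after the values had been seen.

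**Figure D3:**
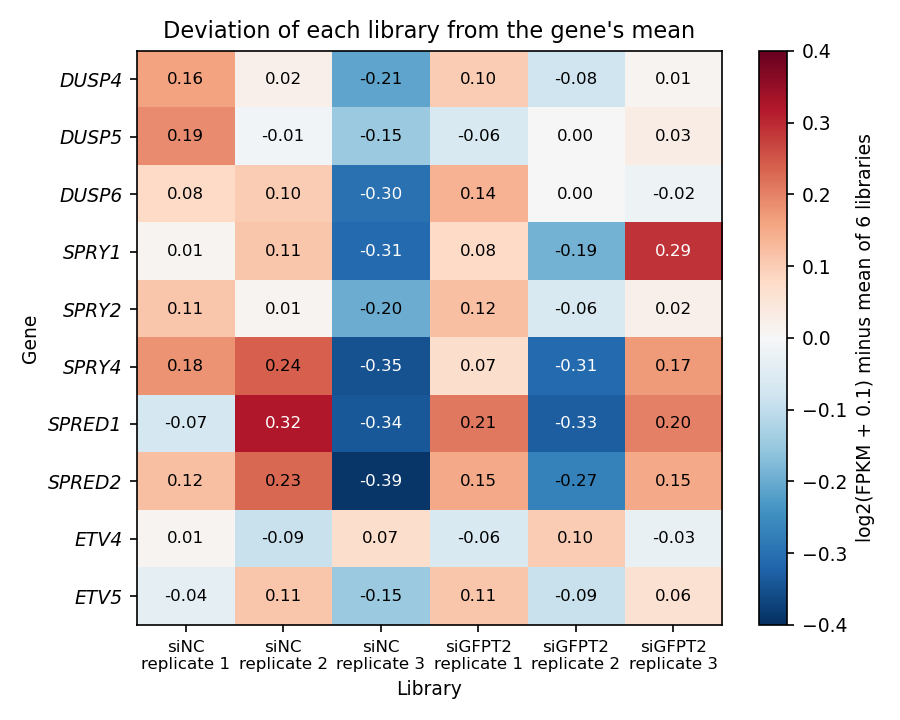
Deviation of each library from the gene's mean over the 6 libraries, on the log2(FPKM + 0.1) scale (red, above; blue, below). The columns of siNC replicate 3 and siGFPT2 replicate 2 are blue for the Sprouty and SPRED genes, down to -0.39 for SPRED2, and also for DUSP4 and ETV5. ETV4 is at 0.07 and 0.10 there.

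Gene length moved with these deviations. The slope of a library's deviation on log2 gene length, over all features tested, was -0.081 in siNC replicate 3 and -0.055 in siGFPT2 replicate 2, and between 0.027 and 0.048 in the other 4 libraries. In siNC replicate 3 the median deviation by decile of length ran from 0.29 for features of 928 to 1999 bases to -0.39 for those of 10279 bases and longer, and in siGFPT2 replicate 2 from 0.19 to -0.24. The shortest decile, of 42 to 927 bases, broke this order, at 0.18 in siNC replicate 3 and 0.12 in siGFPT2 replicate 2. The lengths implied by the deposited values were 2535 bases for DUSP5, 3213 for SPRY2, 3515 for ETV4, 3859 for DUSP6, 3963 for SPRY1, 5505 for SPRED2, 5773 for ETV5, 6555 for SPRY4, 7273 for DUSP4 and 7750 for SPRED1. DUSP4, ETV4 and ETV5 lay within 0.03 of the median of their length decile in both libraries. DUSP4 was at -0.21 and -0.08 (medians -0.20 and -0.11), ETV5 at -0.15 and -0.09 (medians -0.14 and -0.07), and ETV4 at 0.07 and 0.10 (medians 0.08 and 0.07). The other 7 genes lay below the median of their decile in both, DUSP6 in siGFPT2 replicate 2 by no more than 0.01. SPRED2 was at -0.39 and -0.27 where its decile had -0.14 and -0.07, SPRY1 at -0.31 and -0.19 where its decile had -0.01 and 0.01, and DUSP5 at -0.15 and 0.00 where its decile had 0.19 and 0.13. The part of length in the results of these genes was not tested beyond a fit with the slope as a covariate, in which 0 of 10 were called, 0 of 10 had an unadjusted p under 0.05 (5.46% of all features did) and their log2 fold changes lay between -0.05 and 0.13.

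**Figure D4:**
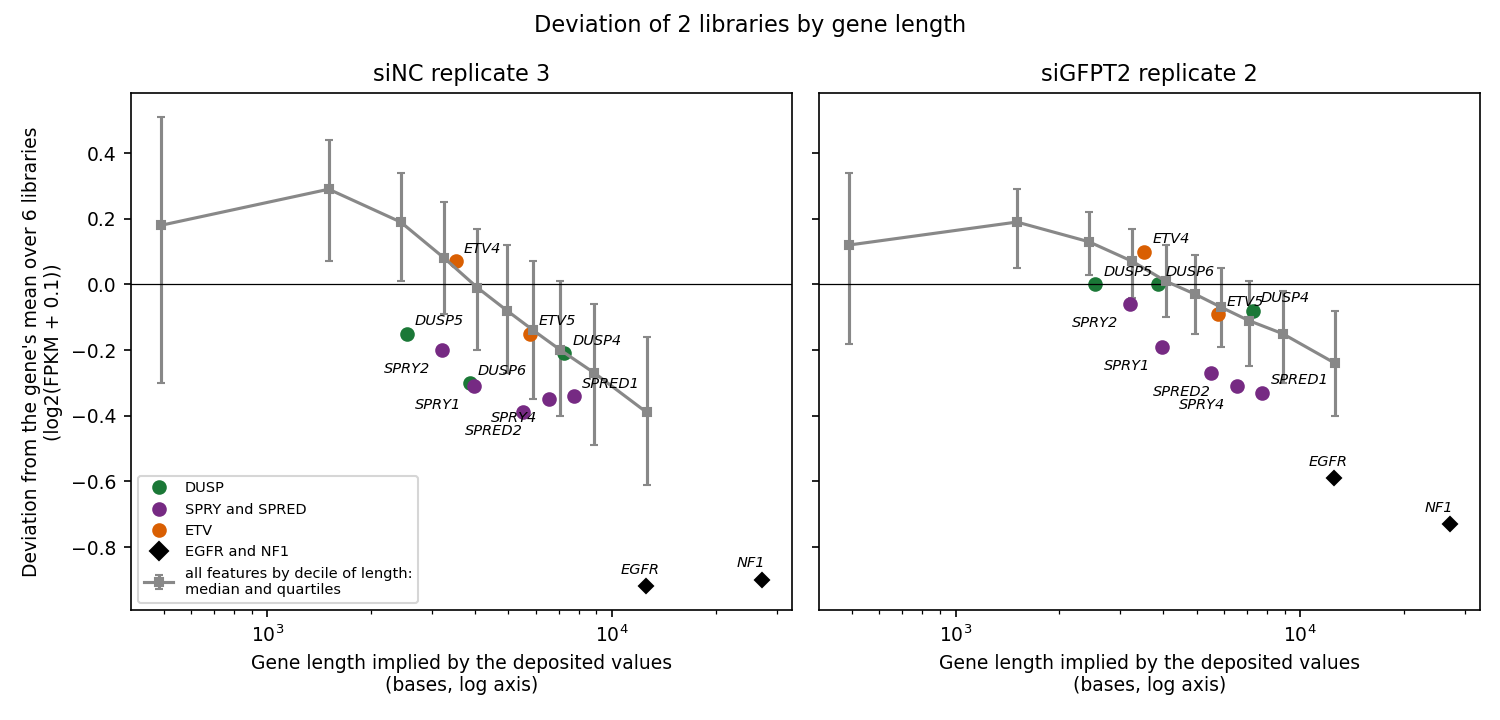
Deviation of siNC replicate 3 (left) and siGFPT2 replicate 2 (right) from each gene's mean over 6 libraries, against gene length on a log axis; grey squares and bars are medians and quartiles of all features by decile of length. The members of the DUSP, Sprouty and SPRED, and ETV families are circles, and EGFR and NF1 (diamonds) lie lowest, EGFR at -0.92 and -0.59.

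Ratios between related genes, which cancel what a library does to both alike, also overlapped between the groups. A departure that differs with gene length does not cancel where the lengths differ, as for ETV4 (3515 bases) and ETV5 (5773). The 6 ratios were chosen after the levels had been seen. SPRED2 stood at 2.19 ± 0.245 times SPRED1 in siNC and 2.13 ± 0.112 in siGFPT2 (n = 3 each, SD), and DUSP6 at 1.09 ± 0.0713 and 1.14 ± 0.0409 times DUSP4. The ratio of ETV4 to ETV5 was 1.03, 0.86 and 1.16 in siNC and 0.88, 1.13 and 0.93 in siGFPT2, highest in siNC replicate 3 and siGFPT2 replicate 2. By the exact two-sided permutation test the 6 ratios, with SPRY2 to SPRY4, SPRY2 to SPRY1 and DUSP5 to DUSP6, gave p from 0.3 to 0.8, and 0.8 for each after Benjamini-Hochberg adjustment.

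The pathway above the feedback genes was read from a list of 25 genes of the receptors, RAS, RAF, MEK and ERK and their regulators. All 25 were tested, limma called 0 in either direction, 0 had an unadjusted p under 0.05, and the median log2 fold change was 0.05, with 16 above 0 and 9 below. EGFR was 26.71, 30.43 and 11.18 FPKM in the siNC libraries and 27.11, 14.04 and 26.21 in siGFPT2. It was thus lowest in siNC replicate 3 and siGFPT2 replicate 2, the lowest pair for 69.0% of features longer than 7750 bases (EGFR, 12507). Its log2 fold change was 0.04 (95% interval -0.98 to 1.06). NRAS and MAPK3 (ERK1) had the smallest p of the list, with 0.28 (-0.18 to 0.74) and -0.11 (-0.35 to 0.14). The most abundant were the receptor MET, at 64.1 ± 22.5 FPKM in the siNC libraries and 67.3 ± 17.4 in siGFPT2, and MAP2K2 (MEK2), at 54.1 ± 12.9 and 48.9 ± 8.05.

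Relatives of the 10 genes, other DUSP phosphatases, Sprouty and SPRED genes and ETS factors, gave the same count. Of 22 on the list, 19 were tested (DUSP2, SPRY3 and SPRED3 were under the minimum), limma called 0, 0 had an unadjusted p under 0.05, and the median was 0.02, with 12 above 0 and 7 below. DUSP8, a phosphatase of JNK and p38, had -0.27 (95% interval -0.69 to 0.14), at 1.28, 1.45 and 1.44 FPKM in the siNC libraries and 1.04, 1.35 and 1.03 in siGFPT2, and the ETS factor GABPA had 0.22 (-0.36 to 0.80). The most abundant relatives were ELK1 at 19.4 ± 5.13 and 18.6 ± 2.58 FPKM and ELK3 at 14.6 ± 3.94 and 15.0 ± 2.20, ternary complex factors that ERK phosphorylates. Both were lowest in siNC replicate 3 and siGFPT2 replicate 2, the lowest pair for 35.4% of all features.

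Other ERK-responsive genes, listed together with CIC, numbered 24, of which 23 were tested (EPHA4 was under the minimum). Limma called 0, 0 had an unadjusted p under 0.05, and the median was 0.01, with 14 above 0 and 9 below. FOSL1, the AP-1 subunit most closely tied to sustained ERK activity, was abundant, at 239.44, 222.36 and 253.58 FPKM in the siNC libraries and 231.92, 254.71 and 215.00 in siGFPT2 (log2 fold change -0.03, 95% interval -0.32 to 0.26). PHLDA2 had -0.21 (-0.67 to 0.25), at 194.0 ± 36.2 and 167.5 ± 31.6 FPKM, and the EGFR ligand HBEGF 0.15 (-0.17 to 0.47). MAFF, a small MAF factor named after its values were seen, was the 1 gene of the 67 tested from the 3 lists whose groups did not overlap, a smaller share than the 3.53% of all features. It was at 2.45, 2.57 and 2.66 FPKM in the siNC libraries and 2.72, 2.85 and 2.67 in siGFPT2 (log2 0.10, -0.18 to 0.38).

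Transcripts with the most similar pattern over the 6 libraries were sought for the most abundant gene of each family, by the root mean square difference of log2 deviations among 6737 other named features whose mean reached 5 FPKM. For DUSP5 these were TBC1D25 (0.016), SLC13A3 (0.021) and FBXO31 (0.028), for SPRED2 CDCP1 (0.009), ADAT1 (0.013) and DROSHA (0.015), and for ETV5 CCNY (0.010), PIP4K2C (0.019) and CSNK2A1 (0.020). The deviations of DUSP5, SPRED2 and ETV5 themselves had root mean squares of 0.103, 0.237 and 0.101. With 6 libraries and so many candidates such closeness is a description only.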

How the data were processed

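The authors deposited 1 table of FPKM values per gene and library. Per the labels' protocols, mRNA was enriched with oligo(dT) and sequenced in paired ends. HISAT2, featureCounts and DESeq2 are named per the submitters' processing notes; genome build, annotation and strand setting are not stated there. Columns were tied to samples by name (siNC, n = 3; siGFPT2, n = 3), and overlaps come from GENCODE 29 (GRCh38).

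Whole reads were recovered for 12895 of 12896 tested features: 4329 with the GENCODE 29 exon length (within 0.01 reads) and 8566 with the smallest length giving whole reads in all 6 libraries (within 0.001 reads), so the match is partly built in. Fragment counts cover counting error only.

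Differences were tested with limma 3.58.1 (R 4.3.3; lmFit, and eBayes with trend) on log2(FPKM + 0.1) for features of mean 1 FPKM or more, with no other term than group, two-sided, adjusted by Benjamini-Hochberg at 0.05, with 95% intervals. This scale understates changes of low genes. On simulated data for this comparison (12895 features) the fit found 55.2% of changes of 1.5-fold, 95.5% of 2-fold and 100.0% of 4-fold, and 8.74% of its calls were false. The simulated libraries held no shared departure such as that of siNC replicate 3 and siGFPT2 replicate 2. These shares therefore need not hold for the real libraries.

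Named were the 10 genes, GFPT2, EGFR, NF1, CIC, the 2 genes with the smallest p and the 2 most abundant of each pathway list, and the 3 transcripts most like the most abundant gene of each family. Members, lists and alternatives were chosen with earlier results of these data known. Alternatives were pseudocount 1, no filter, median centring, a replicate block, limma-voom, a length covariate and leaving out libraries. Some listed marker genes are not reported here.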

Additional observations from a re-analysis of the deposited data

How the results depend on the processing

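Under 13 alternatives limma or limma-voom called 0 of the 10 genes, 0 genes of the 3 pathway lists and 0 features in all. Of 130 values of the 10 genes under them, 0 had an unadjusted p under 0.05, the smallest being 0.238. The direction of such small differences was not stable: 30 of the 130 changed sign, and each of the 10 genes did so under at least 1 alternative. The main median of the 10, 0.037, became -0.016 with median centring and -0.018 with siNC replicate 3 and siGFPT2 replicate 2 both left out, and ran from -0.069 (without siNC replicate 3) to 0.10 (without siNC replicate 2) with 1 library left out. Median centring gave -0.040 for DUSP4, -0.001 for SPRY2, -0.032 for SPRED2 and -0.046 for ETV4. Limma-voom gave -0.010 for DUSP4, -0.003 for SPRED2 and -0.017 for ETV4. Without both libraries DUSP4 was at -0.043, DUSP5 at -0.104 (no change of sign), DUSP6 at -0.029, SPRED2 at -0.029 and ETV4 at -0.007. With 1 library left out the values ran from -0.087 to 0.098 for DUSP4, -0.101 to 0.070 for DUSP5, -0.050 to 0.146 for DUSP6, -0.001 to 0.248 for SPRY1, -0.034 to 0.118 for SPRY2, -0.237 to 0.095 for SPRY4, -0.094 to 0.238 for SPRED1, -0.168 to 0.160 for SPRED2, -0.043 to 0.043 for ETV4 and -0.004 to 0.127 for ETV5. Beyond the libraries left out, the cause was not tested. Deviations of same-numbered libraries from their group means correlated at 0.47, -0.72 and -0.57 for numbers 1, 2 and 3 over features. Those of siNC replicate 3 and siGFPT2 replicate 2 correlated at 0.79. The shared departure of these libraries enters all such correlations, so they cannot show whether same-numbered samples were handled together. With the replicate block 0 features were called, 63 had an unadjusted p under 0.05 (84 without it), and the median of the 10 genes was 0.037. The unadjusted count over all features was 704 with the length slope as a covariate, 520 without siNC replicate 3, 751 without both libraries and 754 of 36981 with no filter on low values. Depth limits SPRY1 most, with 170 to 239 fragments in a library.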

Other observations

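Some genes around the feedback loop reached an unadjusted p under 0.05 in fits other than that with all 6 libraries as deposited. They were picked out after their values were seen, and limma's adjusted p over all features was at least 0.695 for each. With the length slope as a covariate there were 6 of 67 pathway genes, against 5.46% of all features: NRAS had a log2 fold change of 0.28 (95% interval 0.05 to 0.51), the ETS factors ELF1 and ETS1 0.21 (0.03 to 0.39) and 0.15 (0.02 to 0.29), the phosphatase PTPN11 0.15 (0.00 to 0.29), HRAS -0.16 (-0.29 to -0.03) and PHLDA2 -0.21 (-0.38 to -0.05). Without siNC replicate 3 and siGFPT2 replicate 2 there were 2 of 67, a smaller share than the 5.82% of all features: IER3, an ERK-induced early gene, at 0.22 (0.03 to 0.42), and the matrix protein gene TNC at -0.22 (-0.41 to -0.03). With 1 library left out there was 1 of 67 in each of 2 fits: NRAS at 0.44 (0.00 to 0.88) without siNC replicate 2, against 1.25% of all features, and IER3 at 0.26 (0.01 to 0.51) without siNC replicate 3, against 4.03%.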
